A study of Mus musculus with 4 samples.

Results

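Fibroblast growth factors (FGFs) and their receptors were followed in primary osteocyte cultures of mice that lack the nuclear receptor PPARα (αKO) and of wild-type (WT) mice. The set held 10 of the 37411 genes in the count table, taken by symbol. They were 7 ligands (Fgf1, Fgf2, Fgf7, Fgf10, Fgf13, Fgf18 and Fgf21) and 3 receptors (Fgfr1, Fgfr2 and Fgfr3). They were chosen by their counts in these same libraries, with the αKO to WT fold changes known, so their values are given as a description and carry no test.

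RNA was sequenced in 4 libraries, 2 from αKO and 2 from WT mice, and total counts ran from 25136628 to 27496137 per library. In the αKO group a neomycin resistance cassette replaces part of a coding exon of Ppara in every tissue, so the deletion is not restricted to bone cells. The WT group carried no engineered allele. Both groups were femoral cells of the osteocytic digestion fraction, grown ex vivo without treatment for 6 days from mice aged 5 months according to the sample labels, while the study's methods give an older age and a longer culture. The labels name C57BL/6 for every library, whereas the methods place the αKO mice on 129S4/SvJae, and no source used here says how many mice went into a library. Ppara itself had 15 and 9 counts in αKO and 16 and 13 counts in WT replicates 1 and 2, and counts over the whole gene do not check an allele that leaves most exons in place.

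The osteocyte label was only partly borne out by marker genes. Sost, which encodes sclerostin and defines mature osteocytes, was at 0 counts in all 4 libraries, and Mepe, another matrix protein gene of osteocytes, had 1 and 0 counts in αKO and 2 and 4 in WT. Dmp1, a matrix protein gene of osteocytes, had 23 and 110 counts in αKO and 306 and 455 in WT cultures. Lyz2, a macrophage gene, had 525444 and 370689 counts in αKO and 374192 and 221238 in WT, so the cultures also held macrophage RNA in large amount.

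FGF ligands are secreted growth factors that bind receptor tyrosine kinases on the cell surface together with heparan sulfate chains, and signal through the adaptor FRS2 to the MAP kinase cascade. In the skeleton FGFR1, FGFR2 and FGFR3 act in osteoblasts and chondrocytes, and activating mutations of these receptors cause premature closure of skull sutures or dwarfism. Endocrine members such as FGF21 and FGF23 need a klotho protein as coreceptor. FGF23 is the phosphate hormone of osteocytes, and FGF21 is made by the liver in fasting under the control of PPARα.

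Start site sequences are shown for 4 members. Fgf2, Fgf7 and Fgfr2 are ligands and a receptor that were lower in both αKO libraries than in both WT libraries, and Fgf21 is the textbook PPARα target of the family. Each run is 300 bases of RefSeq on GRCm38.p6, from 250 bases before to 50 bases after the start on the strand of the gene, and capitals mark the motifs named after the sequences.
Fgf2 (chr3:37348403-37348702, plus strand): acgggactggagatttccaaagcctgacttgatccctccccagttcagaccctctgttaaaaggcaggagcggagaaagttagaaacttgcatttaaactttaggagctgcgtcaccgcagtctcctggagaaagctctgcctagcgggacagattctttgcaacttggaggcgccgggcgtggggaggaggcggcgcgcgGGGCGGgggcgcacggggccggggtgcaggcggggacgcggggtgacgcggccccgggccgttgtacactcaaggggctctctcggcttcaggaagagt
Fgf7 (chr2:126034408-126034707, plus strand): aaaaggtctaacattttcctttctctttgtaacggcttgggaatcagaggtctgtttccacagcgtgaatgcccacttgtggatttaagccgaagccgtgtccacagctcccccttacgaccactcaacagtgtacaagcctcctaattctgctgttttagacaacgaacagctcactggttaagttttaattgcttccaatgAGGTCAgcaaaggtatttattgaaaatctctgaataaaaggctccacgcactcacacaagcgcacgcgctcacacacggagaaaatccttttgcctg
Fgfr2 (chr7:130266759-130267058, minus strand): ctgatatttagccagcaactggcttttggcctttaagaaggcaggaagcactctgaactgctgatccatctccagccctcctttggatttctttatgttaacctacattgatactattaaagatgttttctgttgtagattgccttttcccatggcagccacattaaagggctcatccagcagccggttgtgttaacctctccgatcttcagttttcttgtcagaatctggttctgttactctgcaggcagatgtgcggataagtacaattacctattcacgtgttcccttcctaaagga
Fgf21 (chr7:45615441-45615740, minus strand): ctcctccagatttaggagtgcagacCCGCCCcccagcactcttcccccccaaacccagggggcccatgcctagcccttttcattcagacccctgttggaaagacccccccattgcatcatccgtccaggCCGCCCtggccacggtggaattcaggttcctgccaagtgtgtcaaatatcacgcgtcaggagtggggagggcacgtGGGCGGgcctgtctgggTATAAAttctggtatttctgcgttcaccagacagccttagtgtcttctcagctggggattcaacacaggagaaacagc

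Fgf1 and Fgfr1 had no window in the set used and were not searched. The motifs were searched on both strands in the windows of the other 8 members, of which Fgf13 has 4 and Fgfr3 has 2. The PPAR response element AGGTCANAGGTCA was found in none of these windows, and in 13 of 32851 windows of all genes (0.0396%). Its half-site AGGTCA, which that element also holds, occurred in the Fgf7 window alone among the members and in 16.3% of all windows. The GC box GGGCGG occurred in any window of 6 of the 8 members. Over all genes 35.7% of single windows held it, so the shares are not counted alike. It was found 1 time each in the windows of Fgf2, Fgf10 and Fgf18, 3 times in that of Fgf21, 4 times in each of 2 Fgf13 windows, and 4 and 2 times in the Fgfr3 windows. The TATA box TATAAA was in the Fgf21 window, in 1 of the Fgf13 windows and in 13.6% of all windows. The Fgfr2 window held no match. GC content was 62.7% for Fgf2, 45.7% for Fgf7, 43.7% for Fgfr2 and 58% for Fgf21, against a median of 52.7%. A match is only a run of letters, and PPARα binding was not measured. Only exact matches inside these windows were counted, so variants of the element and sites elsewhere were not covered. At a share of 0.0396% of all windows, absence of the element from the members, Fgf21 included, says nothing about them.

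Levels between genes were compared in TPM, a read count that the authors scaled by gene length and by library. Fgfr1 and Fgf7 stood at the top in either genotype. Fgfr1 was at 72.8 ± 10.7 TPM in αKO and 168 ± 50.8 TPM in WT osteocytes, and Fgf7 at 68.3 ± 2.93 TPM in αKO and 160.5 ± 17.3 TPM in WT osteocytes (SD, n = 2 each). The order of this pair was not separated, since their libraries overlapped within each genotype. Fgfr2 followed at 30.5 ± 13 TPM in αKO and 72.1 ± 34.2 TPM in WT, below both Fgf7 libraries of its genotype. Fgf2 had the fourth mean in either genotype, at 1.66 ± 0.0573 TPM in αKO and 10.9 ± 9.11 TPM in WT. In WT the next were Fgf13 at 3.16 ± 0.179 TPM and Fgfr3 at 2.56 ± 0.182 TPM, with no overlap between neighbours. In αKO both Fgf2 libraries lay above both Fgf13 libraries (1.09 ± 0.28 TPM), whereas Fgfr3 (1.32 ± 1.19 TPM) overlapped each of them and could not be placed. Fgf1, Fgf18, Fgf21 and Fgf10 were all under 1 TPM in the mean of either genotype.

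Within a gene, levels are given in CPM, counts scaled to library sizes that were adjusted by TMM, and the log2 fold change is αKO over WT from edgeR with its standard error (SE).

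Among the secreted ligands, Fgf7 had the tightest libraries. Fgf7, on chromosome 2 of GRCm38 from 126034658 to 126091185, encodes keratinocyte growth factor, which connective tissue cells make for the epithelial form of FGFR2. It was at 95.8 and 93.0 CPM in αKO replicates 1 and 2 and at 203 and 191 CPM in WT replicates 1 and 2. The αKO libraries were thus within a few percent of each other, far below the WT pair. The log2 fold change was -1.06 (SE 0.269), 2.08-fold lower in αKO, and it stayed between -1.14 and -1.01 when any single library was left out. Fgf7 also made up nearly all ligand message, at 95.6% and 95.7% of the summed TPM of the 7 ligands in αKO and 95% and 87.3% in WT.

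Fgf2, on chromosome 3 from 37348346 to 37410108, encodes basic FGF, a mitogen of bone marrow stroma and osteoblasts that is stored in bone matrix. It was at 4.80 and 4.72 CPM in αKO and at 10.8 and 46.3 CPM in WT replicates 1 and 2. The αKO libraries agreed closely and lay below both WT libraries, while WT replicate 2 stood far above WT replicate 1. The log2 fold change was -2.58 (SE 0.752), moving to -1.22 when WT replicate 2 was left out and to -3.27 when WT replicate 1 was. Exons of Nudt6, which runs on the other strand, cover 9.44% of the exon bases of Fgf2, and whether counting used strand is not given in the sources used here. Nudt6 had 74 and 92 counts in αKO and 56 and 86 in WT.

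Fgf1, on chromosome 18 from 38838673 to 38929472, encodes acidic FGF, which can bind all FGF receptors. It had 3 and 8 counts in αKO and 43 and 21 counts in WT. All libraries were low, and the αKO pair lay below the WT pair. Over the group, the αKO to WT ratio was 0.177, with a 95% exact interval of 0.0844 to 0.339 that covers counting error only. The fitted log2 fold change from edgeR was -2.45 (SE 0.793), and it ran from -3.35 without αKO replicate 2 to -1.87 without WT replicate 1.

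Fgf18 and Fgf10 were near or under the floor of the assay. Fgf18, on chromosome 11 from 33117430 to 33147400, acts on osteoblasts and growth plate cartilage. It had 1 and 0 counts in αKO and 6 and 4 counts in WT, an αKO to WT ratio of 0.103 (95% exact interval 0.00238 to 0.726). That interval pools the reads of a genotype and covers counting error only, not the spread between libraries, so no difference is read from it. The WT libraries held nearly all of its few reads. Fgf10, on chromosome 13 from 118669791 to 118792115, a mesenchymal ligand of lung and limb buds, had 2 and 1 counts in αKO and 1 and 1 in WT. Both groups were thus at or under a floor of 3 counts over the group, so no fold is given.

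Fgf21, on chromosome 7 from 45613886 to 45615490, was also barely detected. It had 1 and 3 counts in αKO and 0 and 1 counts in WT. The ratio of 4.13 had a 95% exact interval of 0.409 to 203, which covers counting error only. A difference of this PPARα target was therefore not detectable at this depth. Its coreceptor Klb was at 0 in both αKO libraries and had 0 and 2 counts in WT.

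Fgf13, on chromosome X from 59062145 to 59568071, belongs to the FGF homologous factors, which stay inside the cell and bind voltage-gated sodium channels rather than FGF receptors. It was at 1.64 and 1.17 CPM in αKO and at 3.33 and 3.96 CPM in WT. The genotypes did not overlap. Its log2 fold change was -1.37 (SE 0.488), between -1.64 and -1.15 with a single library left out.

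**Figure D1:**
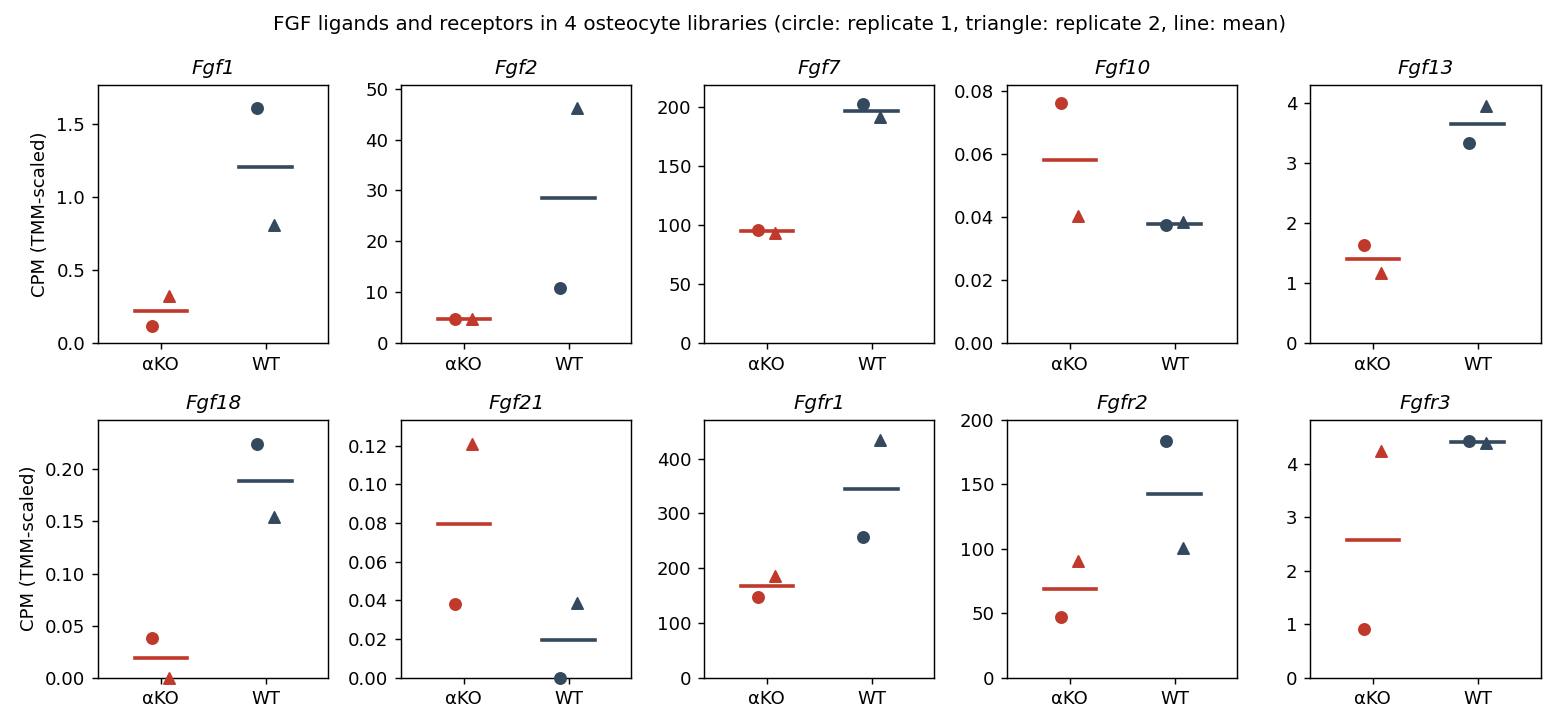
Level of each of the 10 genes in CPM (linear axis from 0, own scale per gene) in the αKO and WT libraries, with circles for replicate 1, triangles for replicate 2 and a line at the mean of 2 libraries. Fgf7 libraries sit at 95.8 and 93.0 CPM in αKO and at 203 and 191 CPM in WT, whereas Fgf10, Fgf18 and Fgf21 rest on counts of 6 or fewer per library.

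Of the receptors, Fgfr1 and Fgfr2 were each lower in both αKO libraries. Fgfr1, on chromosome 8 from 25513654 to 25575718, is the main FGF receptor of mature osteoblasts and osteocytes. It was at 147 and 187 CPM in αKO and at 256 and 434 CPM in WT replicates 1 and 2. The groups did not overlap, and the WT libraries lay farther apart than the αKO libraries. Fgfr1 had a log2 fold change of -1.05 (SE 0.376), and -1.37 without WT replicate 1 and -0.66 without WT replicate 2.

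Fgfr2, annotated on chromosome 7 from 130162451 to 133123350, is a receptor of osteoprogenitors, in which it drives proliferation and early differentiation. It was at 47.0 and 90.7 CPM in αKO and at 184 and 101 CPM in WT. Replicate 2 of αKO came close to replicate 2 of WT. Fgfr2 had a log2 fold change of -1.05 (SE 0.481), and -0.54 without WT replicate 1, -0.65 without αKO replicate 1 and -1.60 without αKO replicate 2. Splice forms of Fgfr2 that differ in ligand choice, the epithelial form bound by FGF7 among them, cannot be told apart in counts per gene. Exons of Ctbp2, on the same strand, cover 3.04% of the exon bases of Fgfr2. The Fgfr2 window printed above lies inside the annotated span, not at its upper end, where a minus strand gene of that span would begin.

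Fgfr3, on chromosome 5 from 33721674 to 33737068, restrains growth plate chondrocytes. It was at 0.915 and 4.24 CPM in αKO and at 4.42 and 4.39 CPM in WT. The low value came from αKO replicate 1 (24 counts), while the 105 counts of αKO replicate 2 stood beside 118 and 114 in WT. The log2 fold change of -0.77 (SE 0.777) was -0.06 without αKO replicate 1 and -2.26 without αKO replicate 2. A gene on the other strand, G630022F23Rik, covers 13.9% of the exon bases of Fgfr3.

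Summed over the 3 receptors, the level was 87.0 and 122 TPM in αKO and 231 and 254 TPM in WT. The mix of receptors did not part the genotypes. Fgfr1 took 75% and 65.8% of this sum in αKO and 57.2% and 80.2% in WT, so the αKO shares lay between those of the WT libraries. The ratio of Fgfr1 to Fgfr2 in TPM was 3.07 and 2.03 in αKO and 1.37 and 4.25 in WT.

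**Figure D2:**
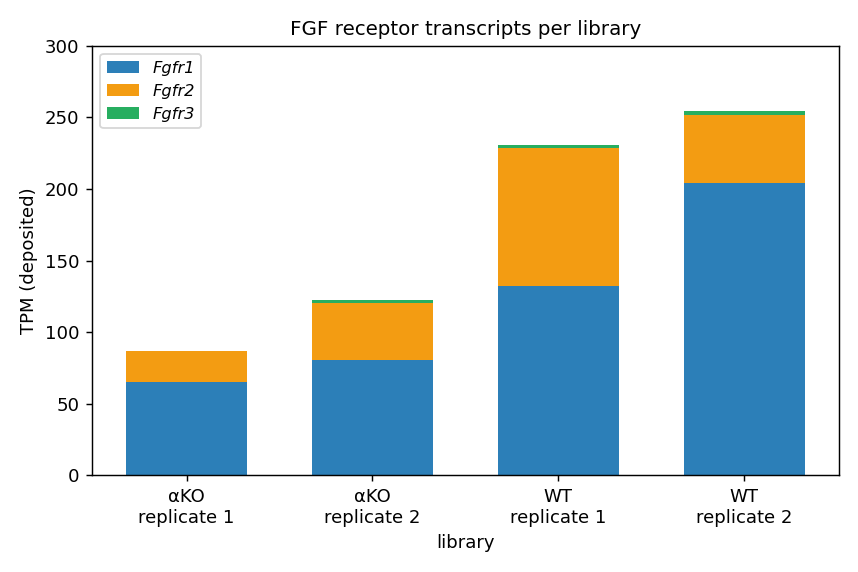
Summed TPM of Fgfr1, Fgfr2 and Fgfr3 (stacked bars from 0) in each of the 4 libraries. The αKO bars reach 87.0 and 122 TPM and the WT bars 231 and 254 TPM, and the share of Fgfr2 is largest in WT replicate 1.

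Of the 10 members, 7 passed the count filter, and in all of these 7 both αKO libraries were below both WT libraries, though for Fgfr3 the nearest libraries differed by less than counting error. Over all 13571 genes tested, the libraries did not overlap and αKO was lower in 16%, and higher in 17.1%. In edgeR's quasi-likelihood test 0 members passed an adjusted p of 0.05, as did 0% of all genes, and 5 members had an unadjusted p under 0.05 and were lower, against 2.59% of all genes on the lower side and 5.39% on either side. DESeq2 and edgeR's likelihood ratio test passed 0 members over all genes as well, against 0.368% and 0.206% of all genes. Since this contrast served to pick the members, nothing is read from these counts. The median log2 fold change of the 7 was -1.06, beside -0.01 for all genes, and a gene such as Fgf1 passed the filter only through its WT counts.

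**Figure D3:**
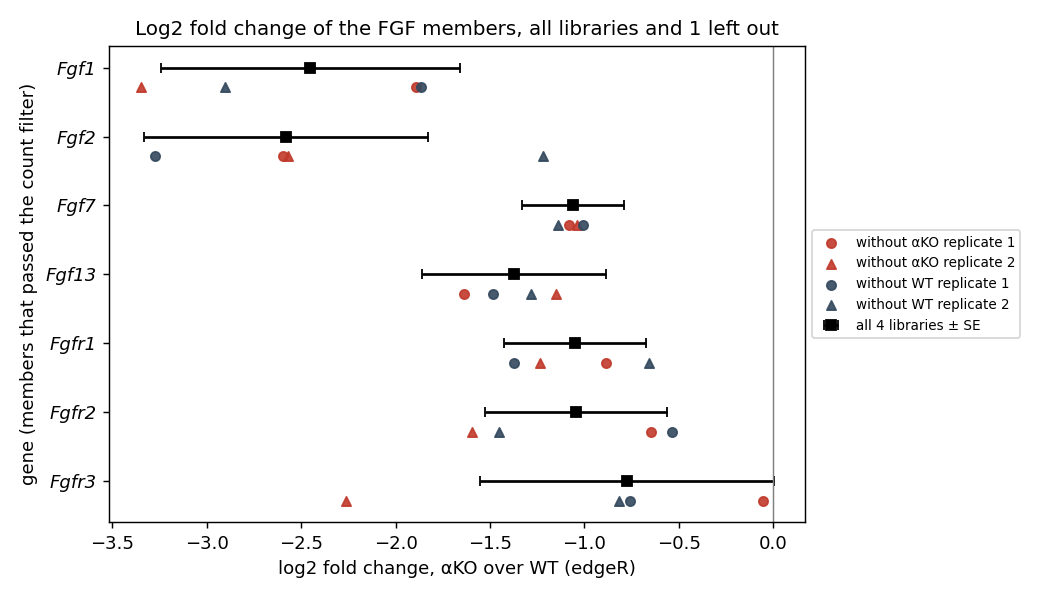
Log2 fold change of αKO over WT for the 7 members that passed the count filter, as squares with SE bars for all 4 libraries, and as circles and triangles with a single library left out. Fgf7 holds at -1.14 to -1.01, Fgf2 moves to -1.22 without WT replicate 2, and Fgfr3 moves to -0.06 without αKO replicate 1.

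Marker genes of some cell types also lay to one side in αKO, in either direction. In edgeR's quasi-likelihood test 0 of all genes, markers included, passed an adjusted p of 0.05. Of 18 macrophage markers 18 were higher in αKO, whereas 50.8% of all genes were lower. In 16 of the 18 the libraries did not overlap, beside 17.1% of all genes on the higher side. Their summed level was 34119.2 and 28473.5 CPM in αKO and 22737.7 and 13281.6 CPM in WT replicates 1 and 2, most of it Lyz2. Of the osteocyte markers, 4 of 6 passed the filter and all 4 were lower, 3 of them without overlap, while the libraries of Phex overlapped. The summed level of the osteocyte markers was 79.6 and 39.4 CPM in αKO and 226 and 227 CPM in WT. Most of this sum was Pdpn, which encodes the membrane protein podoplanin, at 76.3 and 31.7 CPM in αKO and 196 and 201 CPM in WT. Osteoblast markers were lower in 13 of 14, beside 50.8% of all genes. In 7 of the 14 the αKO libraries lay below the WT libraries without overlap, beside 16% of all genes. The osteoblast transcription factor Sp7 was among these, at 293 and 703 counts in αKO and 2081 and 1909 in WT. The summed level of the osteoblast markers, mostly of collagen messages, overlapped at 8581 and 10390.4 CPM in αKO and 9546 and 11424 CPM in WT. General stromal markers did so too, at 3256 and 3842 CPM in αKO and 3185 and 3696 CPM in WT, and 8 of 12 were lower. Scaled to these stromal genes in place of all genes, the log2 fold change was -0.81 for Fgf7, -0.75 for Fgfr1, -0.83 for Fgfr2 and -2.22 for Fgf2, with the median of all genes at 0.24. Of the markers tested for other cells, 5 were higher and 3 lower for osteoclasts, and 1 and 4 for endothelium. For adipocytes they were 1 and 1, and for skeletal muscle 1 and 2. In these bulk cultures, fewer cells of a type and less RNA per cell cannot be told apart, and the part of cell composition in the FGF values was not tested.

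Differences between libraries also followed the GC content of transcripts, with a stronger rank correlation between replicates than between genotypes. The size of the GC trend was not compared. Over 13167 genes, Spearman's rho of GC content with the log2 ratio of replicate 1 over replicate 2 was -0.58 in αKO and -0.71 in WT, against 0.22 for αKO over WT. The points share the same libraries, so no p is given. Fgfr1, at 55.4% GC, had a log2 ratio between WT replicates 1 and 2 of -0.76, and Fgfr2, at 50.2% GC, of 0.87. Fgf2, at 42.2% GC, had a ratio of -2.10, and 78.6% of the genes under the median GC content had a ratio above 0. The part of GC content in the ratios of these members was not tested. With a GC offset the log2 fold change was -1.23 for Fgfr1, -1.08 for Fgfr2, -2.70 for Fgf2 and -1.02 for Fgf7.

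**Figure D4:**
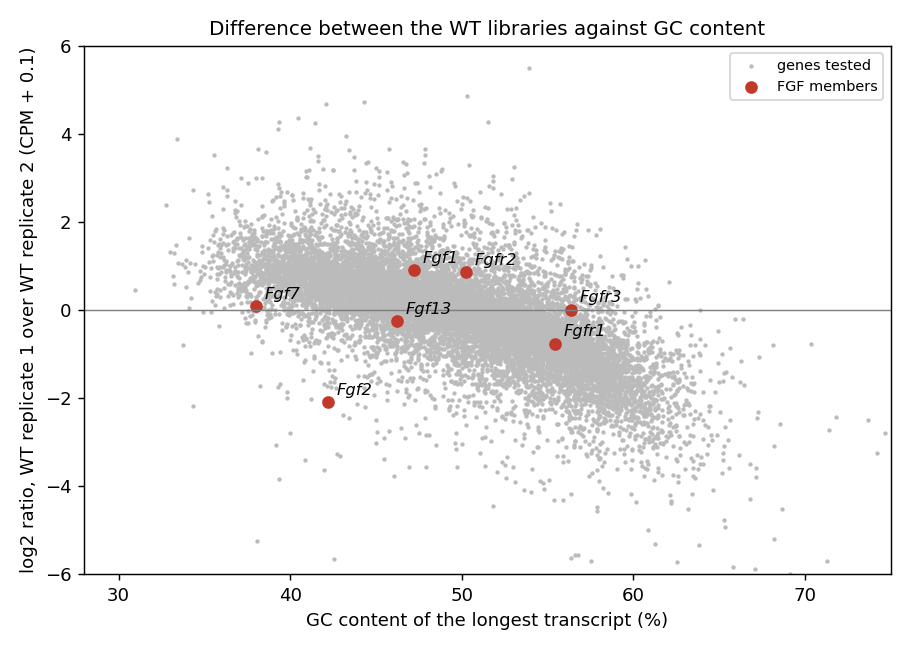
Log2 ratio of the WT libraries, replicate 1 over 2 (CPM plus 0.1), against GC content of the longest transcript in percent, with grey points for genes tested and red points for the 7 members. Fgf2 lies at 42.2% GC, well below the grey points around it, and Fgf7 lies near 0. The axes leave out 10 genes.

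The other genes of the FGF pathway did not share a direction. Of 78 such genes 57 passed the filter, of which 23 were higher and 34 lower in αKO, with a median log2 fold change of -0.20 beside -0.01 for all genes. Scaled to the stromal genes, where all genes had a median of 0.24, 32 were higher and 25 lower (median 0.08), and without WT replicate 2 the median was -0.07. By edgeR's quasi-likelihood test 0 passed an adjusted p of 0.05, and DESeq2 and the likelihood ratio test also passed 0. At an unadjusted p under 0.05 there were 2 higher and 3 lower, beside 2.81% of all genes higher and 2.59% lower.

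Most other ligands were absent or nearly so. Of the 15 remaining FGF genes, 8 had no count in any library: Fgf3, Fgf4, Fgf8, Fgf12, Fgf15, Fgf16, Fgf20 and Fgf23. A count of 0 allows up to 0.112 to 0.121 CPM per library, and for FGF23, the hormone that marks osteocytes, no message was thus detected in these cultures. Fgf5, Fgf6, Fgf9, Fgf14, Fgf17 and Fgf22 had 0 counts in αKO and 1 or 2 in all in WT. Fgf11, an intracellular homologous factor like Fgf13, was the only other ligand tested, at 29 and 33 counts in αKO and 25 and 26 in WT (log2 fold change 0.33, SE 0.518).

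Fgfrl1, a receptor without a kinase domain, was at 14.4 and 40.4 CPM in αKO and at 14.0 and 40.5 CPM in WT replicates 1 and 2. Its level followed the replicate number and not the genotype. The GC content of Fgfrl1 was 57.8%, above the median of 49.6% of genes tested, and the part of GC content in its level was not tested. Fgfr4 had 0 counts in αKO and 1 in WT, and the klotho gene Kl, coreceptor of FGF23, had none in any library. Lctl, a klotho relative, had 39 and 29 counts in αKO and 45 and 25 in WT.

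The signal chain from the receptor to the MAP kinases divided almost evenly, with 9 genes higher and 10 lower of 19 and a median of -0.01, and with 13 higher and 6 lower when scaled to the stromal genes (median 0.19). At an unadjusted p under 0.05 there were 0. The smallest p was that of Grb2, the adaptor that links receptors to RAS, at 275 and 260 CPM in αKO and 191 and 144 CPM in WT (log2 fold change 0.68, SE 0.297, edgeR adjusted p = 0.936). Both αKO libraries lay above the WT libraries, yet the difference did not pass.

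Feedback inhibitors and target genes of FGF signaling went both ways, with 5 higher and 11 lower of 16 (median -0.43, and -0.14 when scaled to the stromal genes or -0.17 without WT replicate 2). Spry4, a Sprouty inhibitor of receptor tyrosine kinase signaling, was at 2.32 and 2.26 CPM in αKO and at 6.14 and 18 CPM in WT. Its pattern over the 4 libraries was like that of Fgf2, with a level αKO pair and a high WT replicate 2. Spry4 had a log2 fold change of -2.40 (SE 0.636, edgeR adjusted p = 0.902), and -1.46 without WT replicate 2. Without WT replicate 1 it was -2.96.

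Etv4, a transcription factor induced by FGF signals, was at 3.24 and 2.10 CPM in αKO and at 4.19 and 26.5 CPM in WT. Nearly all of the difference came from WT replicate 2. Etv4 had a log2 fold change of -2.52 (SE 0.93, edgeR adjusted p = 0.902), and -0.69 without that library. Without WT replicate 1 it was -3.30. Dusp6, a phosphatase that switches off ERK and a common readout of FGF signaling, was higher, at 76.3 and 89.8 CPM in αKO and 49.3 and 50.4 CPM in WT (log2 fold change 0.74, SE 0.282, edgeR adjusted p = 0.913). Thus target genes of the same pathway lay on opposite sides of WT.

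**Figure D5:**
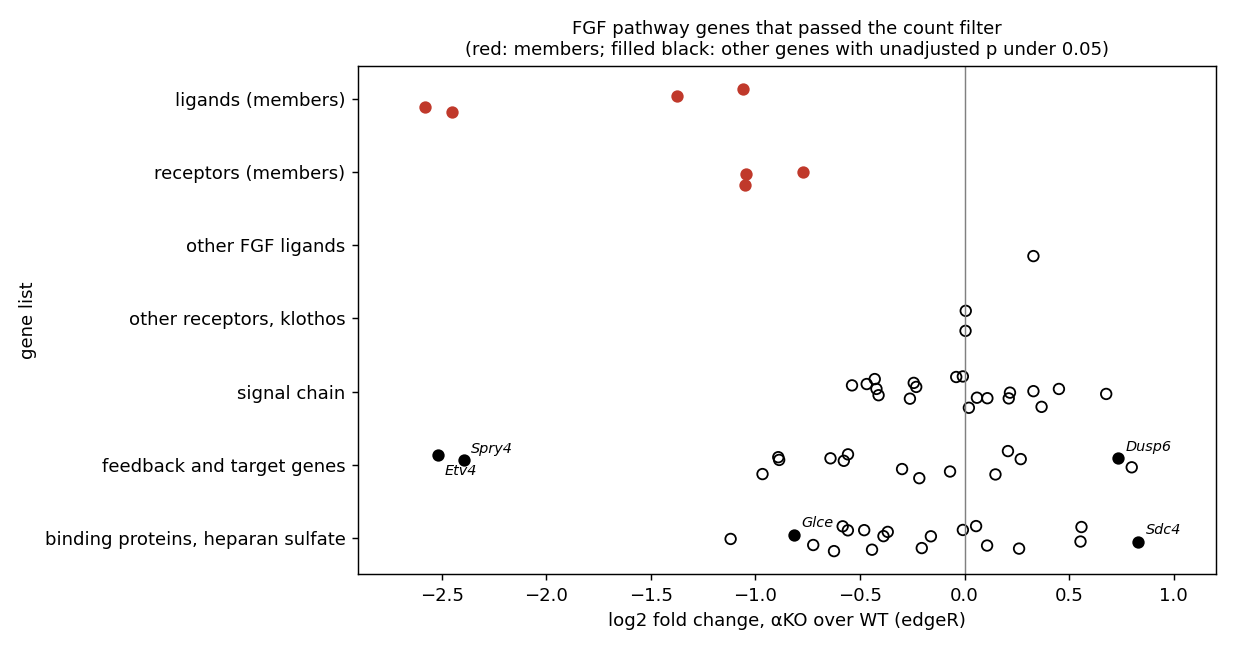
Log2 fold change of αKO over WT for each FGF pathway gene that passed the count filter, by list. Red points are the members, filled black points other genes at an unadjusted p under 0.05. The 4 ligands and 3 receptors lie from -2.58 to -0.77, while the signal chain is spread around 0 and the feedback genes run from Etv4 at -2.52 to Etv5 at 0.80.

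Of the FGF binding proteins and heparan sulfate genes, 6 were higher and 13 lower of 19 tested (median -0.37). Scaled to the stromal genes the median was -0.09, and without WT replicate 2 it was 0.14, with 10 higher and 9 lower. Sdc4, a cell surface proteoglycan that serves as a coreceptor of FGFs, was at 177 and 142 CPM in αKO and at 83.8 and 95.3 CPM in WT (log2 fold change 0.83, SE 0.29, edgeR adjusted p = 0.902). Glce, an epimerase that modifies heparan sulfate chains, was at 45.8 and 39.3 CPM in αKO and at 72.1 and 77.6 CPM in WT (log2 fold change -0.81, SE 0.287, edgeR adjusted p = 0.902). In either gene the genotypes did not overlap and neither difference passed over all genes.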

How the data were processed

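RNA of 4 osteocyte libraries (2 αKO, 2 WT) was sequenced. Per the labels, the authors trimmed reads with Trimmomatic 0.35 and counted them with HTSeq 0.9.1 on mm10, and the deposited counts per gene are raw. The aligner and strand setting are not given in the sources used here. The deposited TPM values, scaled by length by the authors, served for levels between genes. The authors' normalized counts and DESeq2 comparison were not used.

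Genes with enough counts (edgeR 4.0.16, filterByExpr, minimum count 10) were normalized by TMM and compared by the quasi-likelihood test in R 4.3.3, with p adjusted over all genes by Benjamini-Hochberg. This procedure was tested on simulated data. Intervals of count ratios are exact binomial at 95% on the reads pooled over a genotype, and they leave out the spread between libraries. With 2 libraries per genotype, p-values set each difference against the spread between these libraries, estimated in part from all genes. They cover no spread beyond these libraries. The members and gene lists were chosen with earlier results of these data known. All members are named, and of the other lists the 3 genes on each side with the smallest p under 0.05, or else the gene with the smallest p. Alternatives were other scalings, filters, tests (DESeq2 1.42.0, limma 3.58.1), a replicate block, a GC offset and each library left out. Sequences come from a set of RefSeq start site windows on GRCm38.p6, which held 8 of 10 members and lacked Fgf1 and Fgfr1. Positions and GC content come from GENCODE on GRCm38.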

Additional observations from a re-analysis of the deposited data

How the results depend on the processing

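The log2 fold changes of the 7 members tested were negative under all 14 alternatives. These reuse the libraries by which the members were chosen, so nothing is read from the shared sign. Without the filter on low counts, 10 members were fitted and 8 of them were lower. Of the 98 values of the 7 members, 89 differed from the value with all libraries by less than the spread between replicates and 9 by more. That spread was each gene's own, with an SD of 0.047 log2 units for Fgf7 and 1.06 for Fgfr3. A noisy gene could thus shift far and still count as less, as Fgfr3 did at -0.06 without αKO replicate 1. The median over the members was -1.06, from -1.60 to -1.08 with a library left out, -1.31 under the replicate block with a GC offset and -0.83 with stromal scaling. The count of all genes at an adjusted p under 0.05 was 0 with edgeR's quasi-likelihood test (732 at an unadjusted p under 0.05), 50 with DESeq2, 28 with the likelihood ratio test, 1 under the replicate block, and 1 to 818 with a library left out. It was 818 without WT replicate 1, 444 without WT replicate 2, 5 without αKO replicate 1 and 1 without αKO replicate 2, where the lone library is assumed to vary like the other genotype. Pathway genes at an unadjusted p under 0.05 numbered 5 (8.77%, beside 5.39% of all genes), and 10 with a GC offset (17.5% beside 10.8%), 8 under the replicate block (14% beside 11.1%), 12 under the block with a GC offset (21.1% beside 13.2%), and 2 to 18 with a library left out. There were 2 without either αKO library (3.51%, beside 2.13% without replicate 1 and 1.69% without replicate 2), 18 without WT replicate 1 (31.6% beside 21%) and 12 without WT replicate 2 (21.1% beside 22.6%). Replicate numbers were not taken as pairs, since no label ties them to a shared animal or day, although deviations of αKO and WT replicate 1 from their group means correlated at 0.487 across genes. The cause of these shifts was not tested. The depth limits Fgf10, Fgf18 and Fgf21 to counts of 6 or fewer.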

Other observations

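Some pathway genes differed more between replicates than between genotypes. Map2k2, a kinase that activates ERK, had 2224 and 3817 counts in αKO replicates 1 and 2 and 802 and 4556 counts in WT replicates 1 and 2. Frs3, an adaptor of FGF receptors, had 17 and 52 counts in αKO and 11 and 46 in WT, and exons on the other strand overlap it. Hspg2, which encodes the basement membrane proteoglycan perlecan, had 6748 and 7162 counts in αKO, inside the wide gap of 1952 and 21534 counts in WT. In each of them replicate 2 had more counts than replicate 1 in either genotype. Their GC content was 60.4% for Map2k2, 60.9% for Frs3 and 60.9% for Hspg2, above the median of 49.6% of genes tested. The part of GC content in these values was not tested. These genes were chosen after their values were seen.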
